A study of Homo sapiens with 40 samples.

Results

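Invasive FaDu cells sorted from spheroids treated with EGF were compared with FaDu spheroids treated with EGF plus cetuximab. FaDu is a cell line from a hypopharyngeal squamous cell carcinoma, here carrying Dendra2, a fluorescent protein whose colour can be switched by light. The comparison used 8 of the 40 libraries of the series, chosen by their sample titles: 4 of invasive cells and 4 of the cetuximab group. Spheroids of both groups sat in type I collagen at 1.7 mg/mL for 72 h with 9 nM EGF, and the cetuximab group also received 10 µg/mL of the antibody. In the invasive group, 10 to 12 invading areas on each of 40 spheroids were marked by photoconversion and more than 1000 cells were sorted. Cells of the cetuximab group are labelled as unselected. Treatment and cell selection therefore changed together, and their shares in any difference cannot be told apart. Non-invasive cells sorted from EGF spheroids, spheroids in serum-free medium and spheroids given EGF plus 100 nM AZD6244, an inhibitor of the kinase MEK, are quoted as reference levels, with 4 libraries each. The cell selection label reads alike for both sorted groups, so invasive and non-invasive cells are told apart by the sample titles. All groups are labelled wild type and come from 1 cell line. No label says that replicates were separate cultures, so p-values measure the spread between these libraries, which may be technical.

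EGF binds the receptor tyrosine kinase EGFR, which signals through RAS, RAF, MEK and ERK to switch on transcription factors, among them the AP-1 family. ERK activity also raises its own inhibitors, such as the DUSP6 phosphatase and the Sprouty proteins, which makes their transcripts a common readout of the pathway. Cetuximab occupies the ligand-binding part of EGFR and is used against head and neck squamous cell carcinoma. Carcinoma cells entering collagen typically use laminin-binding integrins, matrix proteases and actin contractility, and may lose some epithelial traits without becoming fully mesenchymal.

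The invasive libraries held 3154470 to 4631178 counts and the cetuximab libraries 3420129 to 5669262. All 10 markers of squamous epithelium fixed for the identity check were counted. Their summed levels were 6029 to 7463 CPM in the invasive and 5285 to 6974 CPM in the cetuximab libraries. CPM is a count relative to its library total, which was left unscaled for the marker levels of this paragraph and was scaled elsewhere. The 1 fibroblast marker that could be analysed here, COL1A1, stood at 3.14 to 9.19 CPM in invasive and 6.29 to 15.9 CPM in cetuximab libraries, the endothelial marker CDH5 at 0 to 0.292 CPM over all 8, and the leukocyte marker CD68 at 3.36 to 7.29 and 1.77 to 6.43 CPM. Their part in the results was not tested. Transcripts of the mitochondrial genome took 10.4% to 12.0% of the counts in invasive and 7.02% to 10.96% in cetuximab libraries. Replicate 2 of each group stood apart from its own group: log-CPM correlations with the other replicates were 0.924 to 0.945 for invasive 2 and 0.927 to 0.936 for cetuximab 2. The deposited counts were scaled to CPM with TMM factors, and genes with a Benjamini-Hochberg adjusted p under 0.05 in edgeR's quasi-likelihood test are described as higher or lower in invasive cells.

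Of 12131 genes tested, 2606 (21.5%) differed: 1162 (9.58%) were higher and 1444 (11.9%) lower in invasive cells. Among them 337 higher and 762 lower genes differed by more than 1 on the log2 scale, and 37 and 122 by more than 3. All 4 invasive libraries lay above all 4 cetuximab libraries for 8.31% of the genes tested, and the reverse held for 9.81%. Of 498 long non-coding RNAs, 13 were higher and 74 lower. The median log2 fold change of all genes was -0.06, and scaling by total counts moved it to -0.16 and the higher share of the differing genes from 44.6% to 30.5%. Without cetuximab replicate 3 the number of lower genes was 946, and a fit to these 8 libraries alone, with less information on the spread, gave 688 higher and 625 lower genes. Without both replicates that stood apart the totals were 1247 higher and 1461 lower. In bulk RNA, fewer cells of a kind and less RNA per cell cannot be told apart.

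The genes with the largest rises encode secreted factors, a serpin, a cyclooxygenase, a collagenase and membrane receptors. ESM1, a proteoglycan secreted by endothelial and tumour cells, stood at 19.2, 25.6, 24.7 and 22.2 CPM in invasive replicates 1 to 4 and had 0 counts in the cetuximab group. Taking 3 counts over the group as the floor, it was at least 141-fold higher. SERPINB2, the plasminogen activator inhibitor PAI-2, stood at 4.79, 14.1, 45.5 and 25.1 CPM against 2 counts in the whole cetuximab group, a ratio of 206 with a 95% counting interval of 57.2 to 1705. PRDM1, the transcriptional repressor BLIMP1, stood at 9.10, 14.8, 26.0 and 11.48 CPM against 3 cetuximab counts, a ratio of 94.3 with an interval of 32.3 to 457. No library of one group reached the range of the other for any of these genes, which their choice required. These intervals cover counting error only.

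PTGS2, the inducible cyclooxygenase COX-2, stood at 100.3, 401, 620.3 and 489.9 CPM in invasive replicates 1 to 4 and at 25.3, 12.9, 6.03 and 5.33 CPM in the cetuximab replicates. Its log2 fold change was 5.05 ± 0.63 (SE, adjusted p = 3.36e-05, edgeR). INHBA, the activin A subunit, stood at 28.7, 96.3, 119 and 103 CPM against 4.25, 1.58, 0.603 and 1.20 CPM, a log2 fold change of 5.51 ± 0.62. MMP1, the collagenase that cleaves fibrillar type I collagen, stood at 58.2, 145, 208 and 144 CPM against 8.27, 7.56, 2.81 and 0.344 CPM, a log2 fold change of 4.96 ± 0.54. In all 3 genes invasive replicate 1 was the lowest of its group. It still lay above every cetuximab library, which the choice of genes required. IL1RL1, the receptor of interleukin 33, stood at 101, 170.3, 156 and 114 CPM against 10.3, 16.1, 0.803 and 2.06 CPM (4.33 ± 0.55 on the log2 scale). ANTXR2, a collagen-binding receptor also used by anthrax toxin, stood at 36.4, 56.6, 61.4 and 53.3 CPM against 1.12, 3.15, 2.81 and 2.75 CPM (4.39 ± 0.28). NAV3, a microtubule-associated neuron navigator, stood at 128, 147, 127 and 100.5 CPM against 2.68, 11.03, 4.02 and 9.97 CPM (4.20 ± 0.31). The other members of the 12 were IGFN1 (36.8 ± 22.0 against 0.539 ± 0.640 CPM), TRPV3, a heat-sensitive cation channel of keratinocytes (55.6 ± 29.4 against 1.19 ± 1.02 CPM), and IL24, a cytokine of the interleukin 10 family (15.8 ± 7.92 against 0.526 ± 0.854 CPM), given as mean ± SD over 4 libraries.

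**Figure D1:**
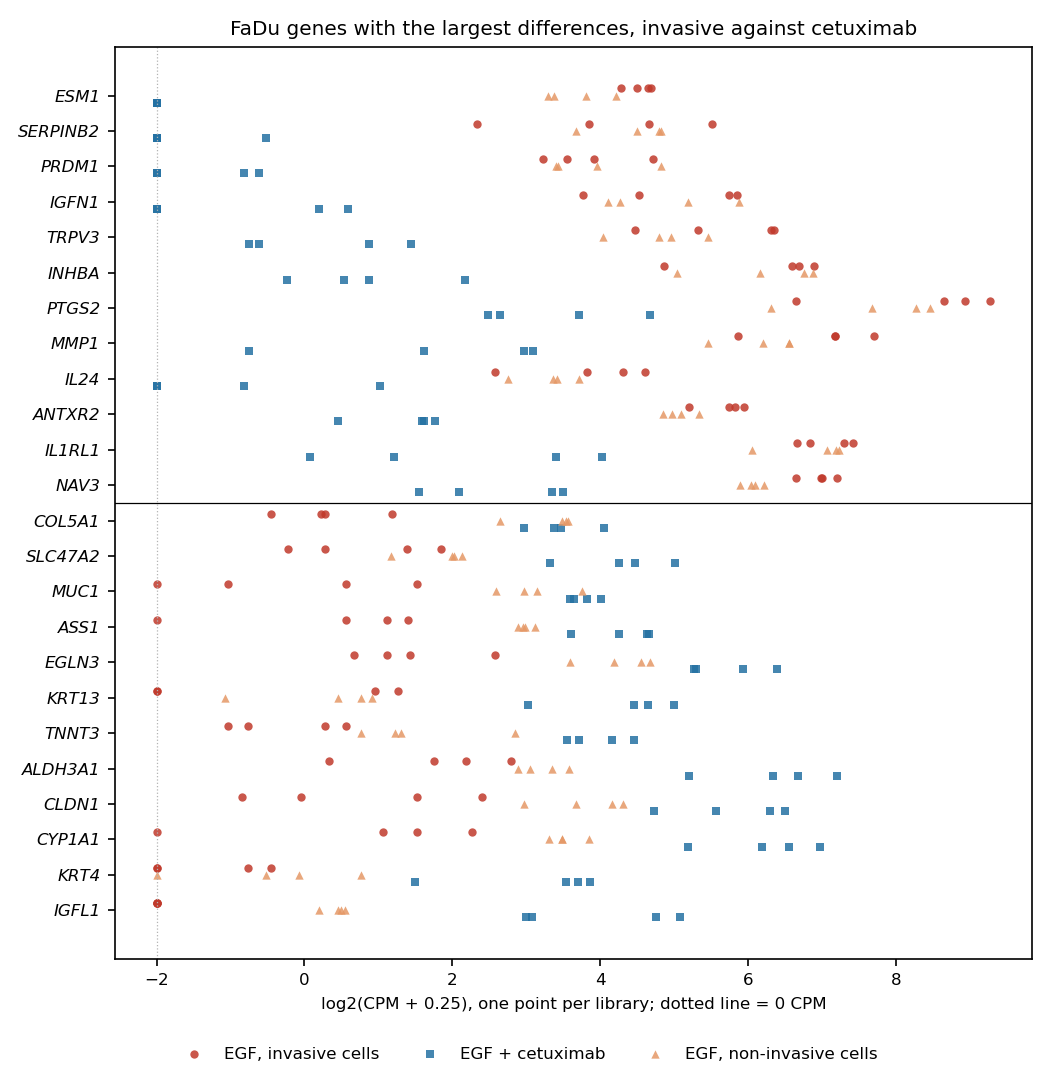
Levels of the 24 protein-coding genes with the largest differences, as log2(CPM + 0.25) on the horizontal axis with 1 point per library, for invasive, cetuximab and non-invasive FaDu cells. Invasive and cetuximab libraries do not overlap for any of the 24, which the choice of genes required. Of the 12 higher genes NAV3 alone passed the test against non-invasive cells.

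Because AP-1 is a transcription factor downstream of ERK, the promoters of these genes were searched for the motif TGANTCA. It reads the same on both strands and is looser than AP-1's core site, TGA(C/G)TCA. The window was the 250 bases before the start site in RefSeq's table on GRCh38.p14. Of the 12 genes with the largest rises 11 had a promoter in the table and 3 held the motif (27.3%), against 0 of 9 among the 12 with the largest falls. In the list of ERK output genes 3 of 16 held it, namely SPRED3, EMP1 and IL11 (18.8%), against 357 of the 9465 tested genes with a promoter (3.77%) and 1801 of all 27305 promoters (6.60%). These matches are descriptions of sequence and not evidence of binding. The shares count every base in the middle position and are not shares of the AP-1 core site. The 3 promoters that held the motif among the 12 largest rises are shown 5′ to 3′ on the gene's strand with the motif in capitals. They lie at chr18:63887455-63887704 on the plus strand for SERPINB2, chr17:3557813-3558062 on the minus strand for TRPV3 and chr2:102337007-102337256 on the plus strand for IL1RL1. The motif begins 102, 104 and 191 bases before the respective start site. It reads TGAATCA in SERPINB2, TGACTCA in TRPV3 and TGATTCA in IL1RL1, so among them TRPV3 alone holds the AP-1 core site.
SERPINB2: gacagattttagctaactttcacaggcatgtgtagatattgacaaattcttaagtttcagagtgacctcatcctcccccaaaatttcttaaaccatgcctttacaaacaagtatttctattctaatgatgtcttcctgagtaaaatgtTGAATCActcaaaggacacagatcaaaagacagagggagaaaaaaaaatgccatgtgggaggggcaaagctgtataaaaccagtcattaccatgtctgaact
TRPV3: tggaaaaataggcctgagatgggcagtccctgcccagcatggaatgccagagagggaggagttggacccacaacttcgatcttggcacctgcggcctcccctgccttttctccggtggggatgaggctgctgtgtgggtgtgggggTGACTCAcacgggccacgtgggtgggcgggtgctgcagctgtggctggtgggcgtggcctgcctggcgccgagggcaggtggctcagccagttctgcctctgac
IL1RL1: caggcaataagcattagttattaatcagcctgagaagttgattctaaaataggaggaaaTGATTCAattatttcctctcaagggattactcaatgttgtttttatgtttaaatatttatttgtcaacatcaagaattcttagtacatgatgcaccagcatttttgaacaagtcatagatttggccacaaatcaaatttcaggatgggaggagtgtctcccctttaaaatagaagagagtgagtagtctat

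The genes with the largest falls encode a secreted growth factor, mucosal keratins, enzymes of xenobiotic metabolism, a tight junction protein and a sensor of oxygen. IGFL1, a secreted insulin growth factor-like protein, had 0 counts in the invasive group and stood at 33.5, 8.19, 26.7 and 7.74 CPM in the cetuximab replicates, at least 92.7-fold lower in invasive cells at a floor of 3 counts over the group. KRT4, a keratin of the upper layers of mucosal epithelium, had 3 counts in the invasive group against 12.7, 11.3, 14.3 and 2.58 CPM. The ratio of cetuximab to invasive cells was 49.8, with a counting interval of 17.0 to 241. KRT13, the partner of KRT4, stood at 0, 1.68, 0 and 2.15 CPM against 31.7, 21.7, 24.9 and 7.91 CPM (log2 fold change -4.44 ± 0.74). In serum-free spheroids these keratins stood at 375 ± 18.9 CPM and 189 ± 3.30 CPM, above the range of both EGF-treated groups.

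CYP1A1, a monooxygenase induced through the aryl hydrocarbon receptor, stood at 2.63, 0, 1.83 and 4.54 CPM in invasive replicates 1 to 4 and 93.6, 36.2, 125 and 72.9 CPM in the cetuximab replicates, a log2 fold change of -5.07 ± 0.42 (adjusted p = 1.11e-07, edgeR). ALDH3A1, an aldehyde dehydrogenase induced through the same receptor, stood at 3.11, 1.01, 4.28 and 6.70 CPM against 102, 80.3, 147.8 and 36.5 CPM (-4.54 ± 0.41). CLDN1, a sealing claudin of tight junctions, stood at 2.63, 5.05, 0.306 and 0.718 CPM against 78.7, 26.1, 90.6 and 47.1 CPM (-4.86 ± 0.51). EGLN3, a prolyl hydroxylase that marks HIF subunits for destruction and is itself induced by hypoxia, stood at 1.92, 1.35, 2.44 and 5.74 CPM against 38.2, 39.1, 61.1 and 83.4 CPM (-4.22 ± 0.47). The groups were separated in all 4 genes, which their choice required, and invasive libraries stood within a few CPM of 0 for CLDN1 and EGLN3. ASS1, the argininosuccinate synthase, fell from 20.1 ± 6.13 to 1.38 ± 1.04 CPM. MUC1, a membrane mucin, fell from 13.5 ± 1.81 to 1.02 ± 1.20 CPM and SLC47A2, a drug and toxin extruder, from 20.6 ± 9.15 to 1.82 ± 1.27 CPM. COL5A1, a chain of type V collagen, fell from 11.2 ± 3.68 to 1.09 ± 0.655 CPM, and TNNT3, a troponin, from 15.9 ± 4.64 to 0.689 ± 0.477 CPM.

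Transcripts of EGFR itself did not separate the groups. EGFR stood at 570.4, 428, 586 and 550.2 CPM in invasive and 496, 458, 515 and 686 CPM in cetuximab libraries, a log2 fold change of -0.01 ± 0.13 (adjusted p = 0.961, edgeR). ERBB2, the partner receptor of EGFR, was lower in invasive cells at 39.4 ± 3.38 against 54.3 ± 5.01 CPM (-0.47 ± 0.13), and the call was lost without cetuximab replicate 3 (adjusted p = 0.0899), in the fit of these 8 libraries alone (0.0973) and in the fit of all 40 libraries of the series (0.219). ERBB3, the kinase-impaired receptor of the family, was also lower at 24.4 ± 8.58 against 37.7 ± 7.72 CPM. That call was lost without any one of cetuximab replicates 1, 3 and 4 or invasive replicates 1 and 2, with adjusted p between 0.0794 and 0.162, and in the same 2 fits of other sets of libraries (0.140 and 0.258).

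Of the 9 tested EGFR family and ligand genes 2 were higher and 2 lower, beside 9.58% and 11.9% of all genes. Without single libraries 2 were higher and 0 to 2 lower. The higher ones were the ligands HBEGF and TGFA. HBEGF, the heparin-binding ligand, stood at 234, 487, 529.5 and 548 CPM in invasive and 92.1, 87.9, 27.1 and 20.6 CPM in cetuximab libraries (3.00 ± 0.48, adjusted p = 0.000338). TGFA stood at 67.0, 79.1, 70.6 and 65.1 CPM against 26.8, 36.5, 19.7 and 28.0 CPM (1.35 ± 0.19). AREG and EREG, the amphiregulin and epiregulin genes, did not pass the test at 1.12 ± 0.51 and 0.44 ± 0.52 on the log2 scale. Their cetuximab libraries spread from 150.2 to 654 CPM for AREG and from 125 to 559 CPM for EREG. In AREG, EREG and HBEGF the cetuximab replicates 1 and 2 were the 2 highest of their group.

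Of 25 genes of ERK output and feedback 7 were higher and 1 lower, beside 9.58% and 11.9% of all genes. Their median log2 fold change was 0.32 against -0.06 over all genes. DUSP6, the ERK phosphatase, stood at 287, 279, 532 and 494 CPM in invasive and 64.4, 96.1, 104 and 153 CPM in cetuximab libraries (1.93 ± 0.27, adjusted p = 3.63e-05). SPRY2, a Sprouty inhibitor of the pathway, stood at 80.7, 99.6, 112 and 115 CPM against 16.3, 15.1, 8.44 and 4.81 CPM (3.22 ± 0.42). Its cetuximab mean was 11.2 CPM against 6.35 CPM in serum-free spheroids, and the cetuximab mean of DUSP6 was 104 CPM against 9.74 CPM without serum. SPRY4 and PHLDA1, a pleckstrin-domain protein, were also higher (1.84 ± 0.45 and 0.93 ± 0.20), as was HMGA2, a chromatin protein of embryonic and tumour cells (96.2 ± 26.0 against 33.1 ± 12.1 CPM, 1.55 ± 0.23). SPRY1 was lower at 0.443 ± 0.681 against 4.77 ± 4.09 CPM, a call lost without cetuximab replicate 4 (adjusted p = 0.0696). Leaving out single libraries gave 5 to 7 higher genes and 0 to 2 lower ones.

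Other ERK-dependent transcripts did not pass the test. ETV4, an ETS factor, stood at 25.1, 31.6, 24.1 and 29.4 CPM in invasive and 41.1, 41.3, 37.2 and 28.7 CPM in cetuximab libraries (-0.42 ± 0.28, adjusted p = 0.304), against 0.676 CPM in serum-free and 1.38 CPM in MEK inhibitor spheroids. ETV5, its close relative, was at -0.56 ± 0.28 on the log2 scale (adjusted p = 0.152). FOSL1, the AP-1 subunit FRA1, stood at 176, 167, 204 and 201 CPM against 123, 106, 38.2 and 58.6 CPM, groups that did not overlap, and missed the threshold at 1.21 ± 0.42 (adjusted p = 0.0524). It passed in 9 of 19 alternatives: limma-voom (0.000993), the fit without robust estimation (0.0176), the 8 libraries alone (0.0231), the replicate block (0.0301), a stricter filter on low counts (0.0404), DESeq2 (0.0461), median-ratio scaling (0.0487), and without cetuximab replicate 1 (0.0258) or 2 (0.0453). AREG, above, passed in limma-voom. ERRFI1, the feedback inhibitor MIG6, did not pass either (0.48 ± 0.27). Of 11 negative regulators of EGFR, 3 rose and 0 fell, beside 9.58% and 11.9% of all genes. The phosphatases PTPN12 (0.49 ± 0.12) and PTPN1 (0.54 ± 0.13) were among the 3.

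**Figure D2:**
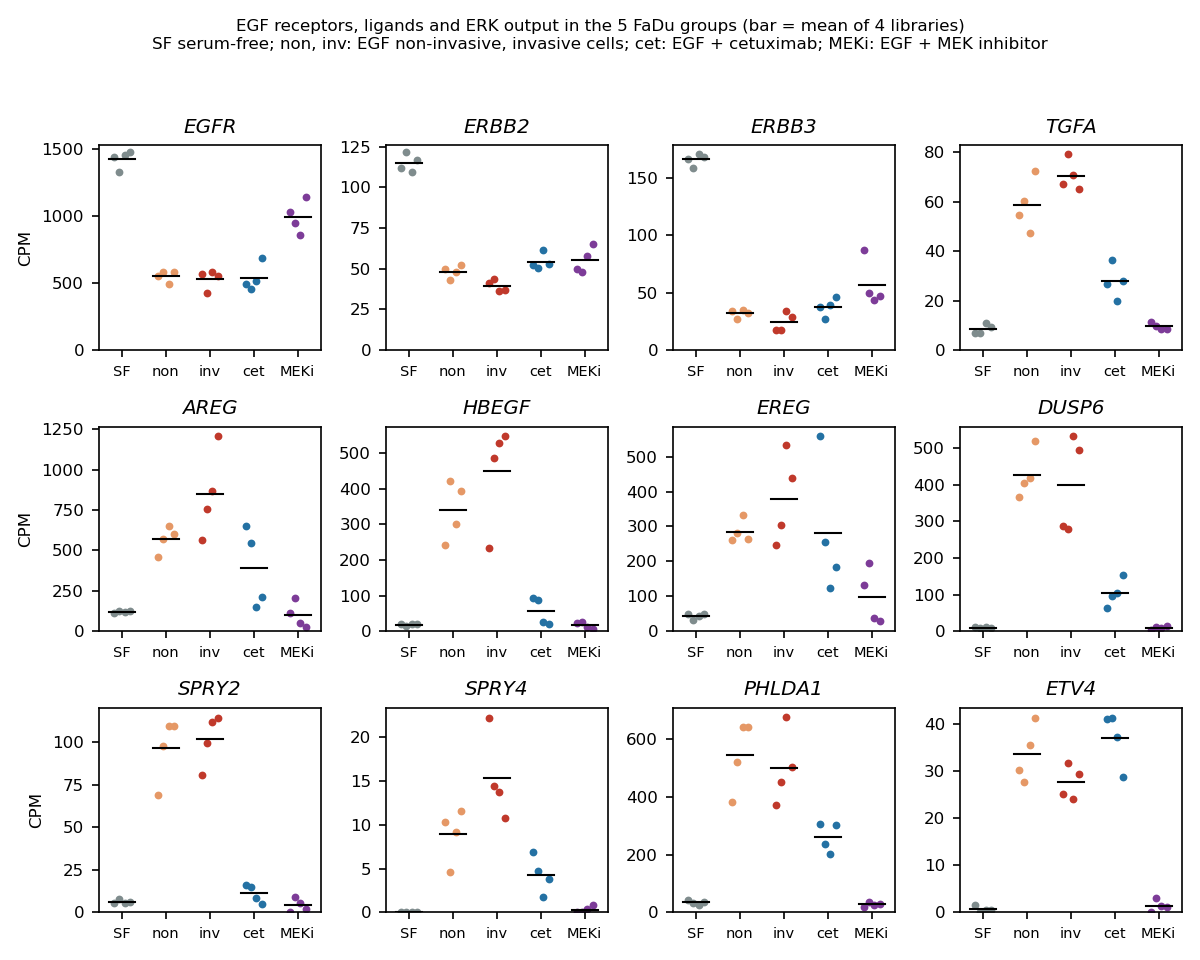
CPM on the vertical axis of 12 EGFR family, ligand and ERK output genes in the 5 FaDu groups, with 1 point per library and the mean as a bar. DUSP6, SPRY2, HBEGF and TGFA are high in both EGF-treated sorted groups and lower with cetuximab, whereas the invasive and cetuximab libraries of EGFR and of ETV4 overlap.

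Of 16 AP-1 subunits and immediate early factors, 2 were higher and 3 lower, near the shares over all genes (9.58% and 11.9%). KLF6, a zinc-finger factor, rose from 157 ± 79.7 to 514 ± 149 CPM (1.72 ± 0.36). JUND and FOSL2, AP-1 subunits, fell: JUND from 146 ± 75.3 to 58.7 ± 9.89 CPM (-1.31 ± 0.30) and FOSL2 from 53.8 ± 21.5 to 14.3 ± 6.28 CPM (-1.91 ± 0.26). The JUND cetuximab libraries lay at 219, 203, 78.1 and 84.8 CPM, with replicates 1 and 2 high. The count of higher genes was 1 without cetuximab replicate 3, invasive replicate 3 or invasive replicate 4.

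Attachment to the basement membrane was covered by 1 list. Of 20 tested genes of the list of laminin-332 chains, integrins and hemidesmosome components, 11 were higher and 0 lower. Over all genes 9.58% were higher and 11.9% lower. The list had a median log2 fold change of 0.67. LAMB3, a chain of laminin-332, stood at 294, 359.9, 503 and 519 CPM in invasive and 197, 130.1, 140.4 and 144 CPM in cetuximab libraries (1.45 ± 0.17, adjusted p = 1.11e-06). ITGA2, the collagen-binding integrin chain, stood at 172, 219, 270.4 and 248 CPM against 65.7, 74.0, 39.6 and 52.8 CPM (1.98 ± 0.21). ITGA6, the laminin-binding chain, stood at 386 ± 45.1 against 173 ± 31.9 CPM (1.16 ± 0.13). FERMT1, the integrin activator kindlin-1, stood at 544, 534, 577 and 507 CPM against 165, 158, 159.9 and 139 CPM (1.80 ± 0.14). In each of these 4 genes the 4 invasive libraries lay above the 4 cetuximab libraries. The number of higher genes in the list ran from 10 to 12 when single libraries were left out.

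Among 12 matrix metalloproteinases and their regulators 4 were higher and 4 lower, beside 9.58% and 11.9% of all genes. Besides MMP1, the stromelysin MMP10 rose from 2.14 ± 1.59 to 18.6 ± 13.6 CPM (3.16 ± 0.62), the inhibitor TIMP1 from 128 ± 33.0 to 516 ± 111 CPM (2.01 ± 0.17) and the protease ADAMTS1 from 1.27 ± 1.15 to 9.23 ± 2.78 CPM (2.84 ± 0.62). The membrane protease MMP15 (-1.37 ± 0.33) and the matrix-bound inhibitor TIMP3 (-2.18 ± 0.50) fell. Proteases and inhibitors stood on both sides of the comparison.

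In the plasminogen system, which turns plasminogen into the protease plasmin, 6 of 14 genes were higher and 1 lower (median 1.09). Over all genes 9.58% were higher and 11.9% lower. ANXA2, a plasminogen receptor subunit, rose from 996 ± 69.0 to 2157 ± 157 CPM (1.11 ± 0.10), and SERPINB5, the serpin maspin, from 58.5 ± 16.5 to 153 ± 28.4 CPM (1.39 ± 0.18). PLAT, the tissue-type activator, fell from 38.6 ± 12.5 to 4.16 ± 2.60 CPM (-3.21 ± 0.31). PLAU, the urokinase, stood at 49.6, 31.3, 418 and 121 CPM in invasive and 142, 5.04, 37.0 and 58.6 CPM in cetuximab libraries. Its ranges overlapped and it did not pass the test (1.34 ± 0.80, adjusted p = 0.259). The count of lower genes was 2 without cetuximab replicate 2 or invasive replicate 3.

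**Figure D3:**
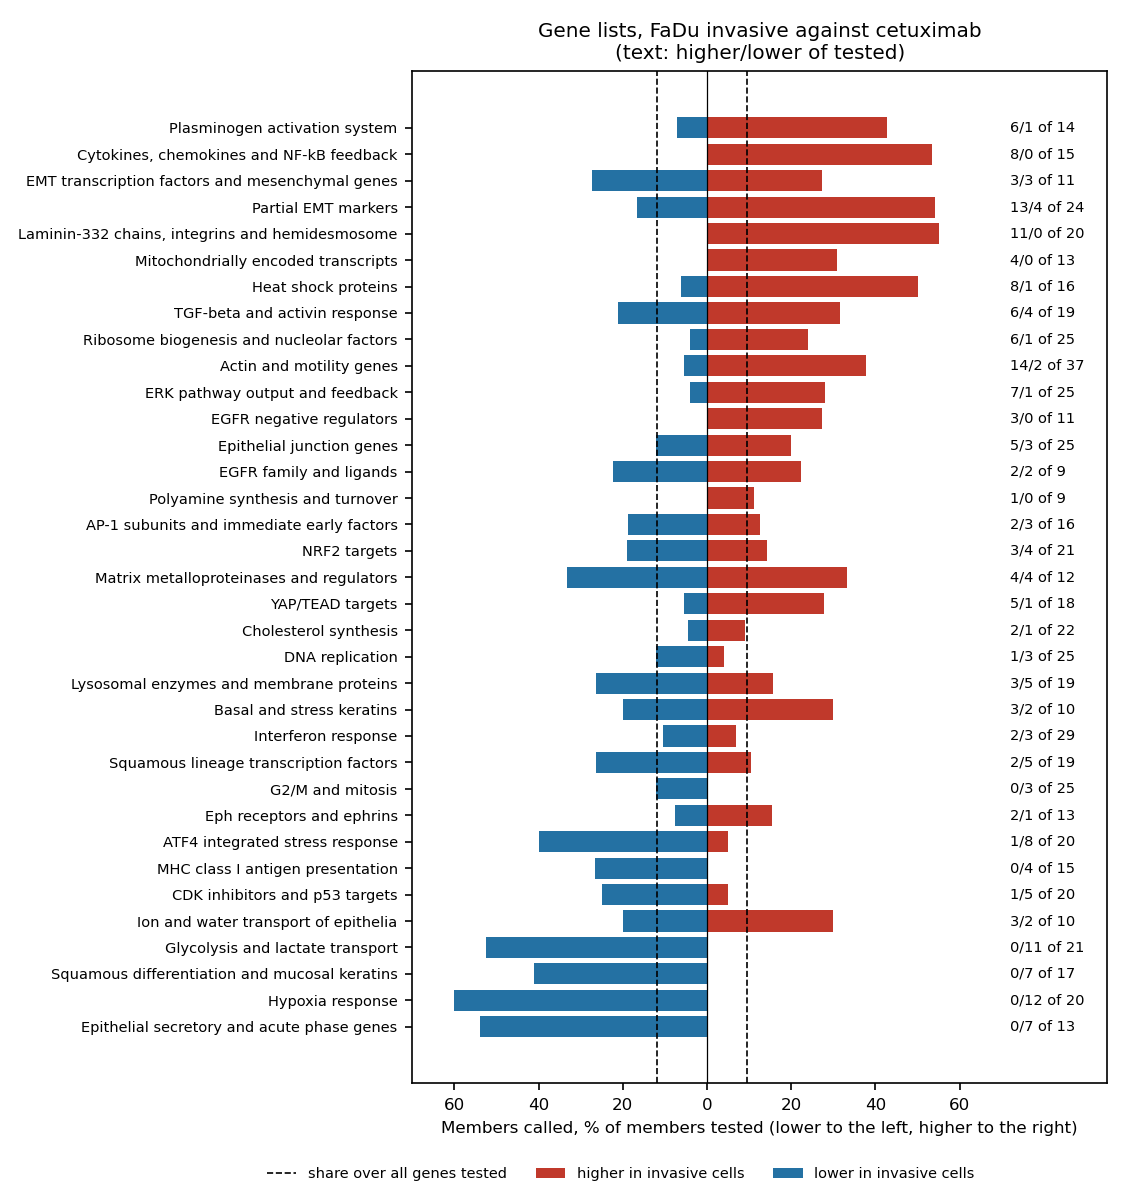
Share of the tested members of 35 gene lists that were higher (right) or lower (left) in invasive cells, with the counts printed as higher/lower of tested and dashed lines at the shares over all genes (9.58% and 11.9%). Lists are ordered by their median log2 fold change. Laminin and integrin, cytokine and partial EMT genes have the largest shares on the right, and hypoxia, secretory and glycolysis genes on the left.

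Partial epithelial-mesenchymal transition (EMT), a state described in invading head and neck carcinoma, was represented by 24 tested genes. Of these 13 were higher and 4 lower (median 0.72), beside 9.58% and 11.9% of all genes. Leaving out single libraries or both that stood apart gave 9 to 13 higher genes and 3 lower ones. The list shares LAMB3, MMP10 and other members with the lists above. DCBLD2, a neuropilin-like receptor, rose from 58.4 ± 5.07 to 177 ± 28.5 CPM (1.60 ± 0.13). CAV1, the caveolin of membrane pits, fell from 1629 ± 173 to 765 ± 175 CPM (-1.09 ± 0.14) and PDPN, the mucin-like protein podoplanin, from 10.7 ± 3.61 to 4.29 ± 0.842 CPM (-1.33 ± 0.29). Of 11 EMT transcription factors and mesenchymal genes 3 rose and 3 fell, beside 9.58% and 11.9% of all genes. ZEB1, a repressor of epithelial genes, stood at 4.55, 5.72, 7.03 and 7.65 CPM in invasive and 0.670, 0.315, 0 and 0.688 CPM in cetuximab libraries (3.77 ± 0.87). S100A4, a calcium-binding protein of motile cells, fell from 12.7 ± 4.03 to 2.15 ± 0.852 CPM (-2.52 ± 0.33). The count of higher genes in that list was 1 without cetuximab replicate 3, cetuximab replicate 4 or invasive replicate 4. VIM, the mesenchymal filament protein vimentin, had too few counts to be tested, with 0 in the invasive and 1 in the cetuximab group.

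CDH1, the E-cadherin of adherens junctions, did not pass the test, with 62.2, 76.8, 105 and 82.3 CPM in invasive and 133, 44.1, 83.6 and 124 CPM in cetuximab libraries (-0.25 ± 0.26, adjusted p = 0.546). Among 25 junction genes 5 were higher and 3 lower, where 9.58% of all genes were higher and 11.9% lower. The share of lower genes was thus near that over all genes. CLDN1 had the largest fall. These counts depended on single libraries. The higher count was 8 without cetuximab replicate 1 and 2 without cetuximab replicate 2 or 3 or invasive replicate 2, 3 or 4, and the lower count was 1 without invasive replicate 4.

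Of 17 tested squamous differentiation genes 7 fell and 0 rose, with a median of -1.06, and without single libraries 7 or 8 were lower. Over all genes 11.9% fell and 9.58% rose. Besides KRT4 and KRT13, KRT80, a keratin of differentiating cells, fell from 21.9 ± 7.68 to 3.59 ± 1.96 CPM (-2.59 ± 0.33) and CSTA, the envelope protein cystatin A, from 41.1 ± 4.56 to 19.4 ± 3.29 CPM (-1.07 ± 0.18). NOTCH3, a receptor that promotes differentiation, fell from 24.9 ± 4.53 to 11.4 ± 5.51 CPM (-1.15 ± 0.22).

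Keratins of other kinds moved in both directions. KRT5, the keratin of basal cells, stood at 48.6, 46.8, 57.4 and 74.4 CPM in invasive and 478, 132, 643 and 287 CPM in cetuximab libraries (-2.76 ± 0.35). KRT8 and KRT18, the pair of simple epithelia, rose: KRT18 stood at 4628, 4419.9, 4296 and 4219 CPM against 1183, 2616, 1400.3 and 1641 CPM (1.36 ± 0.16), and KRT8 rose from 906 ± 150.2 to 1989 ± 260.3 CPM (1.13 ± 0.15). KRT6A, a keratin of activated keratinocytes, rose from 1.81 ± 1.09 to 18.1 ± 5.81 CPM (3.34 ± 0.43). KRT8, KRT18 and KRT6A have near-identical gene copies or pseudogenes, so their counts are uncertain. Of 19 transcription factors of the squamous lineage 2 rose and 5 fell, beside 9.58% and 11.9% of all genes. ELF3 and EHF are related epithelial ETS factors, and ELF3 fell from 173 ± 45.9 to 32.4 ± 3.74 CPM (-2.41 ± 0.23) while EHF rose from 4.25 ± 1.98 to 17.4 ± 2.77 CPM (2.07 ± 0.29). PAX9 fell to 9.42 ± 1.50 from 37.8 ± 16.7 CPM (-2.001 ± 0.27), and TP63, the master factor of basal cells, to 18.7 ± 5.32 from 44.8 ± 14.7 CPM (-1.27 ± 0.26). SOX9 rose from 108 ± 36.8 to 192 ± 19.3 CPM (0.83 ± 0.19). Without cetuximab replicate 2 or invasive replicate 2, 3 or 4 the count of lower factors was 3.

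Of 37 actin and motility genes 14 were higher and 2 lower (median 0.35), beside 9.58% and 11.9% of all genes. MSN, the membrane-actin linker moesin, rose from 146 ± 32.9 to 322 ± 45.4 CPM (1.14 ± 0.14), MYH9, the non-muscle myosin heavy chain, from 608 ± 102 to 1122 ± 53.2 CPM (0.89 ± 0.11), and TPM3, a tropomyosin, from 284 ± 36.5 to 517 ± 26.4 CPM (0.87 ± 0.12). CAPG, an actin-capping protein, was lower (-1.04 ± 0.29). The groups were separated for the 3 rising genes. Of 18 targets of YAP and TEAD, 5 were higher and 1 lower, beside 9.58% and 11.9% of all genes. The lower count was 0 without cetuximab replicate 1 or 4 or invasive replicate 1 or 4 and 2 without cetuximab replicate 2. NT5E, the ectonucleotidase CD73, stood at 34.2, 28.6, 73.6 and 51.7 CPM against 2.91, 7.88, 4.02 and 9.63 CPM (2.94 ± 0.32), and AMOTL2, an angiomotin, rose from 29.8 ± 2.02 to 79.2 ± 8 CPM (1.41 ± 0.28).

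In the list of TGF-beta and activin response genes 6 of 19 were higher and 4 lower, beside 9.58% and 11.9% of all genes. TGFB1 itself rose from 9.76 ± 5.83 to 34.3 ± 1.58 CPM (1.84 ± 0.29) and ID1, a target of BMP and TGF-beta signalling, fell from 378 ± 59.3 to 136 ± 37.8 CPM (-1.47 ± 0.20). The count of lower genes was 2 without cetuximab replicate 1 or 4 or invasive replicate 1, 2 or 4.

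Of 20 genes of the hypoxia response 12 fell and 0 rose, beside 11.9% and 9.58% of all genes, with a median of -1.19. BNIP3L, a receptor for the removal of mitochondria, stood at 37.3, 44.1, 55.3 and 52.1 CPM in invasive and 185, 122, 229 and 313 CPM in cetuximab libraries (-2.17 ± 0.23, adjusted p = 5.08e-07). MXI1, an antagonist of MYC, stood at 17.95, 3.70, 18.9 and 10.5 CPM against 68.2, 53.9, 68.7 and 94.7 CPM (-2.47 ± 0.29). ANGPTL4, a secreted lipase inhibitor, had 3 counts in the invasive group and 2.46, 6.30, 3.21 and 11.2 CPM in cetuximab libraries, a ratio of cetuximab to invasive cells of 28.2 with a counting interval of 9.64 to 137. The groups did not overlap for these genes or for EGLN3, and for EGLN3 the choice of genes required it. Non-invasive cells, which received EGF without cetuximab, stood at 178 ± 22.1 CPM for BNIP3L, 32.4 ± 2.95 CPM for MXI1 and 5.61 ± 1.97 CPM for ANGPTL4, closer to the cetuximab than to the invasive level for BNIP3L and ANGPTL4.

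Of 21 genes of glycolysis and lactate transport 0 were higher and 11 lower (median -0.58), beside 9.58% and 11.9% of all genes. ALDOC, an aldolase, stood at 21.5, 30.3, 21.7 and 34.4 CPM against 56.1, 144, 110.5 and 127 CPM (-2.02 ± 0.22). GPI, the phosphoglucose isomerase, fell from 757 ± 108 to 382 ± 30.9 CPM (-0.99 ± 0.13), ENO2, an enolase, from 24.3 ± 6.54 to 6.18 ± 1.31 CPM (-1.98 ± 0.26), and SLC16A3, the lactate exporter MCT4, from 209.6 ± 74.5 to 79.5 ± 13.5 CPM (-1.39 ± 0.20). Leaving out single libraries gave 11 to 14 lower hypoxia genes and 9 to 12 lower glycolysis genes.

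Stress programmes moved in different directions. Of 20 genes of the ATF4 response to amino acid shortage 1 was higher and 8 lower, beside 9.58% and 11.9% of all genes. SLC7A5, an amino acid transporter, fell from 623 ± 164 to 269.7 ± 55.4 CPM (-1.21 ± 0.17), PHGDH, the entry enzyme of serine synthesis, from 254 ± 67.2 to 119.8 ± 26.2 CPM (-1.08 ± 0.16), and CHAC1, a glutathione-degrading enzyme, from 17.7 ± 9.22 to 4.39 ± 2.29 CPM (-1.99 ± 0.45). PPP1R15A, the GADD34 phosphatase subunit, rose (1.49 ± 0.34), and the higher count was 2 without cetuximab replicate 2. DDIT4, an inhibitor of mTORC1 induced by hypoxia and ATF4, stood at 39.0, 89.5, 111 and 82.3 CPM against 268, 136, 326 and 531 CPM (-1.98 ± 0.42).

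Of 16 heat shock proteins 8 were higher and 1 lower, beside 9.58% and 11.9% of all genes. HSPH1 rose from 627 ± 115 to 1061 ± 91.1 CPM (0.76 ± 0.12) and DNAJA1 from 152 ± 21.3 to 287 ± 11.9 CPM (0.92 ± 0.12), both parts of the HSP70 machinery, while the small heat shock protein HSPB1 fell (-0.70 ± 0.12). HMOX1, the haem oxygenase and a target of NRF2, stood at 99.1, 154, 167 and 217 CPM against 23.5, 17.96, 9.64 and 10.1 CPM (3.40 ± 0.29, adjusted p = 2.00e-08). Of 21 NRF2 targets 3 were higher and 4 lower, shares little above those over all genes. GCLM, a subunit of the enzyme for glutathione synthesis, rose from 278 ± 93.8 to 510.1 ± 21.6 CPM (0.88 ± 0.17), whereas FTL, the ferritin light chain, fell from 1919.5 ± 532 to 1036 ± 122 CPM (-0.89 ± 0.16) and TKT, a transketolase, from 513 ± 132 to 294 ± 54.4 CPM (-0.80 ± 0.16). FTL, like ANXA2 above, has processed pseudogenes, so these counts are uncertain. Without cetuximab replicate 1 the higher count was 5.

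ODC1, the rate-limiting enzyme of polyamine synthesis, stood at 305, 385, 700.0 and 582 CPM in invasive and 146, 65.2, 73.9 and 60.01 CPM in cetuximab libraries (2.51 ± 0.35), with cetuximab replicate 1 apart from the other 3. Of 25 genes of ribosome biogenesis 6 were higher and 1 lower, beside 9.58% and 11.9% of all genes. NOLC1, a nucleolar chaperone, was among the higher (0.63 ± 0.14), and 13 were higher without cetuximab replicate 2. No gene of that list was lower without any one of cetuximab replicates 1 to 3 or invasive replicates 2 to 4. SREBF2, the factor that drives cholesterol genes, fell (-0.53 ± 0.13), among 22 cholesterol genes of which 2 rose and 1 fell, no more than the shares over all genes (1 rose without cetuximab replicate 1 or 3 or invasive replicate 1 or 4, and 2 fell without invasive replicate 1). Of 13 transcripts encoded in mitochondria 4 were higher and 0 lower, beside 9.58% and 11.9% of all genes. The higher count was 8 without cetuximab replicate 2, 1 without cetuximab replicate 3, and 2 without cetuximab replicate 4 or invasive replicate 2, 3 or 4. Its part in the other differences was not tested.

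Of 15 cytokines, chemokines and NF-kB feedback genes 8 rose and 0 fell (median 0.76), beside 9.58% and 11.9% of all genes. CXCL8, the neutrophil chemokine interleukin 8, stood at 33.0, 31.6, 38.2 and 37.6 CPM against 12.5, 13.2, 5.62 and 8.08 CPM (1.85 ± 0.26), and CXCL3, a related chemokine, at 8.38, 7.41, 6.72 and 7.18 CPM against 0.447, 0.315, 0 and 0.516 CPM (4.40 ± 0.75). A lower gene was counted in this list without cetuximab replicate 3 or invasive replicate 2, 1 in each case. Of 29 interferon response genes 2 were higher and 3 lower, near the 9.58% and 11.9% over all genes. IFITM3, an antiviral membrane protein, fell from 396 ± 116 to 163 ± 15.5 CPM (-1.28 ± 0.16) and PARP9, an ADP-ribosyltransferase, from 19.5 ± 2.67 to 8.37 ± 3.38 CPM (-1.19 ± 0.24), whereas ISG20, an exonuclease, rose from 5.97 ± 3.70 to 19.7 ± 7.75 CPM (1.75 ± 0.41). Without invasive replicate 3 the list had 1 higher and 5 lower genes. Of 15 genes of antigen presentation by MHC class I 0 were higher and 4 lower, beside 9.58% and 11.9% of all genes. The lower count was 2 without cetuximab replicate 1 or 3 or invasive replicate 1.

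Of 13 secretory and acute phase genes of epithelium 7 fell and 0 rose (median -2.17), beside 11.9% and 9.58% of all genes. LCN2, the iron-binding lipocalin, had 3 counts in the invasive group against 2.01, 3.78, 4.62 and 1.72 CPM, a ratio of 14.8 with a counting interval of 5.05 to 71.6. CP, the ferroxidase ceruloplasmin, had 1 count against 3.13, 0, 5.82 and 11.2 CPM, a ratio of 73.5 with an interval of 13.2 to 2902. The cetuximab libraries of CP included 1 at 0. CTSD, a lysosomal protease, fell from 222 ± 32.8 to 97.2 ± 4.81 CPM (-1.19 ± 0.13) and GAA, the lysosomal glucosidase, from 22.2 ± 2.46 to 8.47 ± 1.64 CPM (-1.39 ± 0.20). Of the 19 lysosomal genes in their list 3 were higher and 5 lower, beside 9.58% and 11.9% of all genes. EFNB1, an ephrin ligand, rose (1.01 ± 0.21) and EFNA5, another, fell (-1.07 ± 0.26).

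Genes of proliferation passed the test about as often as other genes or less. Of 25 genes of DNA replication 1 was higher and 3 lower (median -0.07), and of 25 G2/M genes 0 were higher and 3 lower (median -0.22), where 9.58% of all genes were higher and 11.9% lower. GINS1, of the replicative helicase, stood at 24.8 ± 8.66 against 45.9 ± 11.4 CPM (-0.87 ± 0.22) and NUSAP1, a spindle protein, at 157 ± 23.0 against 233 ± 34.9 CPM (-0.57 ± 0.15). NUSAP1 lost its call without both replicates that stood apart, and both genes lost it in the fit of all 40 libraries. Without invasive replicate 2, 1 replication gene was lower, and 3 were higher without cetuximab replicate 2 but 0 without cetuximab replicate 3 or 4 or invasive replicate 1, 2 or 4. For G2/M, 1 was lower without cetuximab replicate 3 or 4 or invasive replicate 2 or 3. CDKN1A, the CDK inhibitor p21, rose from 119, 84.7, 20.5 and 35.6 CPM in cetuximab to 242, 472, 481 and 383 CPM in invasive libraries (2.61 ± 0.42). In the list of CDK inhibitors and p53 targets 1 of 20 genes was higher, 5 were lower and 14 did not pass. Over all genes 9.58% were higher and 11.9% lower. GDF15, a secreted stress cytokine, stood at 12.7, 14.1, 13.7 and 13.2 CPM against 179.9, 113, 59.9 and 77.5 CPM (-3.00 ± 0.35), and BBC3, the apoptosis activator PUMA, at 5.98, 10.1, 6.72 and 8.13 CPM against 70.2, 35.0, 21.9 and 15.99 CPM (-2.21 ± 0.55). The count of lower genes was 2 without cetuximab replicate 3 and 3 without invasive replicate 1.

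To see which of these genes also differed between cells given the same treatment, invasive cells were set against non-invasive cells of the EGF spheroids. Both comparisons use the same invasive libraries and are not independent. In that contrast 364 of the 12131 genes (3.00%) passed, 209 without non-invasive replicate 4, 218 without replicate 1 and 237 without replicate 2 of that group, and of the 129 genes reported here 10 were higher and 29 lower in invasive cells, against 0.659% and 2.34% of all genes. Of these, 49 were named for the size of their change, for passing this contrast or from the fixed set of EGFR and ERK genes (6 higher and 8 lower). The other 80 were named as members of lists (4 higher and 21 lower). The choice took 6 genes in each direction because they passed this contrast, and most others by a difference that uses the same invasive libraries. The shares over all genes are therefore no baseline for these counts. HMOX1 was 1.34 ± 0.26 (adjusted p = 0.00380, edgeR) beside 3.40 ± 0.29 against cetuximab, on the log2 scale, with non-invasive libraries at 34.3, 62.0, 84.5 and 71.1 CPM. RGS2, a regulator of G protein signalling, was 1.01 ± 0.24 beside 3.59 ± 0.29. PLCB4, a phospholipase, was 1.03 ± 0.26 beside 2.06 ± 0.27, and SERPINE2, the protease nexin, 0.95 ± 0.24 beside 1.63 ± 0.24. TONSL, a DNA repair scaffold, was 1.75 ± 0.36 beside 1.13 ± 0.34, with invasive libraries at 12.0, 18.5, 16.2 and 14.1 CPM, non-invasive at 6.72, 4.43, 3.57 and 3.14 CPM and cetuximab at 6.03, 5.04, 10.2 and 6.02 CPM. NAV3 was 0.91 ± 0.25 beside 4.20 ± 0.31. The list members that rose were GCLM (0.85 ± 0.17), KRT18 (0.74 ± 0.16), KRT8 (0.59 ± 0.15) and FERMT1 (0.57 ± 0.13).

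None of these 10 rises passed when all 40 libraries were fitted together, where HMOX1 had an adjusted p of 0.0554, TONSL 0.146, SERPINE2 0.148, RGS2 0.320, PLCB4 0.403, NAV3 0.679, KRT18 0.0585, KRT8 0.205, FERMT1 0.375 and GCLM 0.468. Several also rested on single libraries. Against non-invasive cells the call of NAV3 was lost in each of the 8 fits without one replicate of either group (adjusted p 0.0583 to 0.135). RGS2 lost it in 4 of them (0.0546 to 0.0934, without invasive replicate 3 or 4 or non-invasive replicate 2 or 4), and PLCB4 in 4 (0.05003 to 0.0972, without invasive replicate 3 or 4 or non-invasive replicate 1 or 2). SERPINE2 lost it in 6 (0.0558 to 0.0916, all but without invasive replicate 2 and non-invasive replicate 4). KRT8 lost it in 6 (0.0548 to 0.124, all but without invasive replicate 2 and non-invasive replicate 2) and FERMT1 without non-invasive replicate 1 (0.0670). NAV3 and KRT8 did not pass under total-count scaling either (0.0646 and 0.0663), nor NAV3 with a replicate block (0.0589), without robust estimation (0.0504) or without the replicates that stood apart (0.0622). Against cetuximab, TONSL lost its call without invasive replicate 2 (adjusted p = 0.0508), without both replicates that stood apart and in the fit of all 40 libraries.

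A collagen chain, a mucin, a claudin and a channel subunit were among the genes that fell against non-invasive as well as cetuximab cells. COL5A1 was -3.22 ± 0.44 beside -3.40 ± 0.44 and stood at 10.98, 11.4, 6.02 and 11.6 CPM in non-invasive libraries, close to the cetuximab level. MUC1 was -2.98 ± 0.40 beside -3.60 ± 0.38, CLDN1 -2.77 ± 0.55 beside -4.86 ± 0.51 and EGLN3 -2.71 ± 0.49 beside -4.22 ± 0.47. SCNN1A, a subunit of the epithelial sodium channel, was -2.45 ± 0.35 beside -3.35 ± 0.34, with 1.92, 0.337, 2.14 and 4.31 CPM in invasive, 18.2, 11.6, 8.47 and 12.1 CPM in non-invasive and 16.5, 22.7, 29.1 and 25.6 CPM in cetuximab libraries. DUSP8, a phosphatase of stress kinases, was -2.55 ± 0.65 beside -3.08 ± 0.64. It lost the call against non-invasive cells in 7 of the 8 fits without one replicate, all but without non-invasive replicate 3 (0.0506 to 0.0855), without the replicates that stood apart (0.0668), with all 40 libraries (0.0504) and in limma-voom (0.203). CYP1A1 and ASS1 also passed, at -2.22 ± 0.47 and -2.36 ± 0.39. The calls of CYP1A1 (0.0986), CLDN1 (0.0645) and EGLN3 (0.0753) were lost in limma-voom and that of ASS1 with all 40 libraries (0.0699).

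In whole lists, 13 of 29 interferon, 9 of 21 glycolysis and 7 of 20 hypoxia genes fell against non-invasive cells and 0 rose. Over all genes 2.34% fell and 0.659% rose. Only list members named by their result against cetuximab are given here. Of the 21 such members that fell, 7 were genes of the hypoxia and glycolysis lists: ENO2 (-2.40 ± 0.26), BNIP3L (-1.91 ± 0.23), SLC16A3 (-1.67 ± 0.21), ALDOC (-1.41 ± 0.21), MXI1 (-1.32 ± 0.30), GPI (-0.74 ± 0.13) and ANGPTL4, whose level is given above. The others were BBC3 (-2.40 ± 0.55), GDF15 (-2.12 ± 0.35), PLAT (-1.58 ± 0.33), CAPG (-1.56 ± 0.28), PARP9 (-1.52 ± 0.24), JUND (-1.37 ± 0.30), ELF3 (-1.31 ± 0.22), NOTCH3 (-1.23 ± 0.22), IFITM3 (-1.18 ± 0.16), HSPB1 (-1.10 ± 0.13), CSTA (-0.97 ± 0.18), GAA (-0.87 ± 0.20), CTSD (-0.49 ± 0.12) and LCN2. Of all 39 genes past this contrast, 12 kept the call in every alternative run, namely MUC1, COL5A1, SCNN1A, CAPG, BNIP3L, ANGPTL4, ALDOC, ENO2, SLC16A3, IFITM3, ELF3 and HSPB1. With all 40 libraries the calls of PLAT (0.259), CSTA (0.208), NOTCH3 (0.0970), GDF15 (0.108), GPI (0.267), PARP9 (0.191), LCN2 (0.652), CTSD (0.271) and GAA (0.269) were lost, and in limma-voom those of PLAT (0.0554), LCN2 (0.115), CTSD (0.0530), GAA (0.0642) and BBC3 (0.0643). Without 1 library CTSD and BBC3 each lost the call in 6 of 8 fits (0.0610 to 0.102 and 0.0508 to 0.0671), JUND without invasive replicate 1 or non-invasive replicate 4 (0.0518 and 0.0540) and MXI1 without invasive replicate 4 (0.0571). CTSD kept it without invasive replicate 1 or non-invasive replicate 2, and BBC3 without invasive replicate 2 or non-invasive replicate 1. GAA also lost it with only the 8 libraries compared (0.0633) and BBC3 without the replicates that stood apart (0.0625). By contrast, non-invasive cells stood beside invasive ones in the ERK output genes, with 427 ± 65.5 CPM for DUSP6 and 96.5 ± 19.2 CPM for SPRY2.

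The same contrast in Kyse30, a line from an oesophageal squamous cell carcinoma treated in the same way (CPM scaled over all 40 libraries), was set against that of FaDu by an interaction test, which 5.34% of 12652 genes passed. The first invasive Kyse30 library held only 463124 counts, and without it 1263 genes passed instead of 676. Of the 129 genes reported here 37 passed, 27 above and 10 below 0, against 2.77% and 2.58% of all genes. All but the fixed set were chosen by their FaDu result, which enters this test, so these shares are no baseline for them. Among the 49 genes not chosen as list members 15 passed, 7 above and 8 below 0. Kyse30 values and the differences come from the fit of all 40 libraries, and FaDu values from that of the 20 FaDu libraries. On that footing 8 of the 37 genes passed the test in both lines with opposite signs. Of the 8, PARP9 alone did not pass in FaDu in the fit of all 40 libraries (-1.20 ± 0.49, adjusted p = 0.131, edgeR). ANTXR2 was -3.06 ± 0.55 in Kyse30 against 4.39 ± 0.28 in FaDu, and EGLN3 2.11 ± 0.47 against -4.22 ± 0.47. HMOX1 was -0.62 ± 0.58 against 3.40 ± 0.29 and DUSP8 0.79 ± 0.55 against -3.08 ± 0.64, neither past the test in Kyse30 alone. The differences, Kyse30 minus FaDu, were -7.45 ± 0.69, 6.34 ± 0.71, -4.01 ± 0.67 and 3.87 ± 0.86 (adjusted p = 1.26e-09, 1.76e-07, 0.000109 and 0.00362, edgeR). PTGS2 stood at 130.5 ± 45.9 CPM in invasive and 118 ± 74.4 CPM in cetuximab Kyse30 cells, and its change differed from that of FaDu by -4.89 ± 0.76. DUSP6 stood at 120.5 ± 68.1 and 121 ± 72.0 CPM there, a difference of -1.88 ± 0.48, which was lost without Kyse30 cetuximab replicate 4 (adjusted p = 0.0664) and with the 16 libraries alone (0.155). SPRY2 differed by -2.47 ± 0.54. ETV4, which did not pass the test in FaDu, stood at 16.8 ± 11.2 against 100.3 ± 34.9 CPM in Kyse30 and differed between the lines by -1.97 ± 0.49, a call lost with the 16 libraries alone (0.109). That of DUSP8 was lost there (0.0783) and in limma-voom (0.0664).

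Among the list members, some genes of the hypoxia response and glycolysis were lower in invasive FaDu cells and higher in invasive Kyse30 cells, and others, such as MXI1 (-1.36 ± 0.33 in Kyse30), were not. ANGPTL4 stood at 45.4 ± 34.7 CPM in invasive and 2.24 ± 1.55 CPM in cetuximab Kyse30 cells, the reverse of its order in FaDu. DDIT4 was 1.58 ± 0.34 in Kyse30 against -1.98 ± 0.42 in FaDu, ENO2 1.44 ± 0.53 against -1.98 ± 0.26 and GPI 0.68 ± 0.26 against -0.99 ± 0.13, all past the test in each line. The interferon response genes IFITM3 (0.93 ± 0.29 against -1.28 ± 0.16) and PARP9 (1.43 ± 0.46 against -1.19 ± 0.24) also had opposite signs. PARP9 lost the interaction call without the shallow Kyse30 library (0.0777), in limma-voom (0.0818), with the 16 libraries alone (0.114) and without the FaDu replicates that stood apart (0.0577), and GPI with the 16 libraries alone (0.102). BNIP3L and SLC16A3 differed between the lines by 2.83 ± 0.39 and 1.59 ± 0.29, without passing the test in Kyse30 alone. ANXA2 rose in both lines and by more in Kyse30 (a difference of 1.45 ± 0.24), and CTSD fell in both and by more in Kyse30 (-1.30 ± 0.25). Of the 37 genes 16 kept the interaction call in every alternative run, and the other 21 lost it in at least 1.

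**Figure D4:**
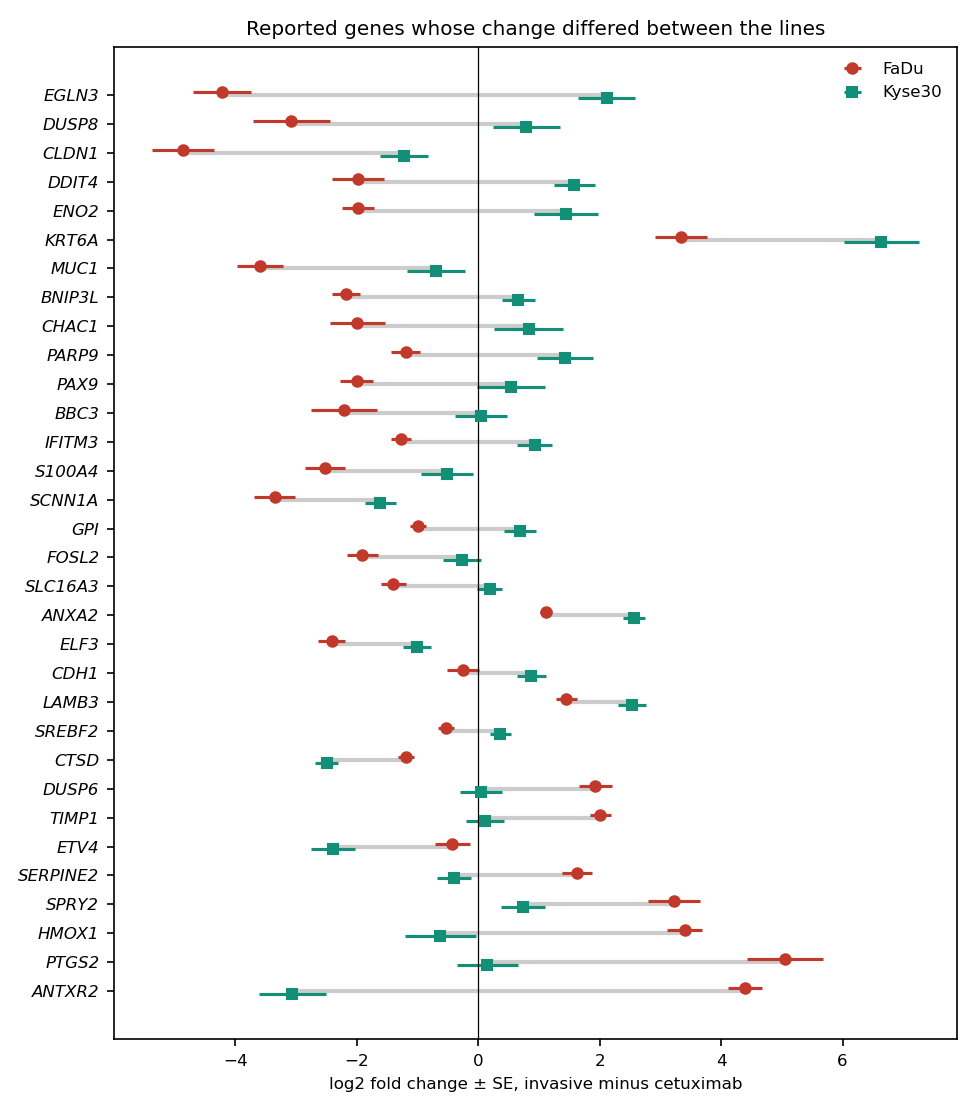
Log2 fold change, invasive minus cetuximab, with its SE in FaDu (circles) and Kyse30 (squares) for the 32 reported genes past the interaction test that had more than 3 counts in each of the 4 groups, 23 of them above and 9 below 0 as Kyse30 minus FaDu. EGLN3 and ANTXR2 are the widest apart, on opposite sides of 0. FaDu values come from the fit of the 20 FaDu libraries and Kyse30 values from that of all 40 libraries.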

How the data were processed

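Counts per gene from 3′ mRNA sequencing (Lexogen QuantSeq) were deposited as whole numbers by the authors for 12655 genes in 40 libraries. STAR and HTSeq on GRCh38 (hg38) were used per the submitters' processing notes. Their versions, the strand setting, the annotation and the rule that selected the genes are not stated in any label or header read here, so overlapping and antisense genes cannot be told apart. The 20 FaDu libraries were fitted together in 5 groups with edgeR 4.0.16 in R 4.3.3 (TMM scaling, default filter on low counts, robust quasi-likelihood test), and all 40 in 10 groups for the test between lines. An adjusted p under 0.05 (Benjamini-Hochberg over all genes tested) counted as different, and standard errors come from the F statistic. On simulated counts the test found 55.6% of genes changed 2-fold and 87.5% of those changed 4-fold for invasive against cetuximab over 11976 genes. Of its calls there 6.71% were false. The interaction test found 5% of genes changed 2-fold and 57% of those changed 4-fold. For invasive against cetuximab only 99 genes were changed 2-fold and 96 4-fold, whereas 21.5% of genes differed in the data, so these rates may not carry over. Floors use 3 counts over a group and intervals are exact at 95%, for counting error only.

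Named genes were the 12 largest changes in each direction among protein-coding genes that passed, did not overlap and reached 10 CPM, up to 4 members with the smallest p and 2 opposed members of each of 35 lists, a fixed set of EGFR and ERK genes, and the 6 largest in each direction past both contrasts. Values against non-invasive cells and between lines were planned for all but the list members, and were extended to these after seeing the data. A few of them are left out for brevity or because 1 library decided the call, and some are not reported here. The members and lists were chosen with earlier results of these data known. The list of laminins and integrins holds DSTYK, which is not a hemidesmosome gene. Alternatives were DESeq2 1.42.0, voom in limma 3.58.1, other scalings, filters and sets of libraries, a replicate block and leaving out libraries. Leaving out both libraries that stood apart was chosen after seeing the data.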

Additional observations from a re-analysis of the deposited data

Results flagged for a closer look

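In 12 of 258 groups of 4 libraries (4.65%) 1 library lay far from the other 3 by Dixon's criterion, and chance flags about 1 in 20. In the invasive group these were JUND at 44.0 CPM and CP at 0.239 CPM in replicate 1, ITGA6 at 318 CPM, IFITM3 at 140.0 CPM and EHF at 21.5 CPM in replicate 2, TIMP3 at 3.97 CPM in replicate 3 and KRT6A at 26.8 CPM in replicate 4. In the cetuximab group they were SERPINB2 at 0.447 CPM and ODC1 at 146 CPM in replicate 1, GINS1 at 63.0 CPM and TP63 at 23.0 CPM in replicate 2 and GAA at 25.9 CPM in replicate 3.

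For 37 of 129 reported genes the change differed between the lines by the interaction test (edgeR, adjusted p under 0.05). The difference, Kyse30 minus FaDu on the log2 scale, was below 0 for ANTXR2 (-7.45), PRDM1 (-6.22), PTGS2 (-4.89), HMOX1 (-4.01), SPRY2 (-2.47), SERPINE2 (-2.02), ETV4 (-1.97), TIMP1 (-1.90), DUSP6 (-1.88) and CTSD (-1.30). It was above 0 for IGFL1 (9.04), ANGPTL4 (8.96), EGLN3 (6.34), KRT5 (5.76), DUSP8 (3.87), ALDOC (3.73), CLDN1 (3.63), DDIT4 (3.56), ENO2 (3.42), KRT6A (3.29), MUC1 (2.91), BNIP3L (2.83), CHAC1 (2.83), PARP9 (2.63), PAX9 (2.54), BBC3 (2.26), IFITM3 (2.21), S100A4 (2.02), SCNN1A (1.74), GPI (1.67), FOSL2 (1.64), SLC16A3 (1.59), ANXA2 (1.45), ELF3 (1.41), CDH1 (1.13), LAMB3 (1.09) and SREBF2 (0.89). The values of PRDM1, IGFL1, ANGPTL4, KRT5 and ALDOC depend on the prior count, since a group of either line held 0 to 3 counts.

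Calls that were never lost in any alternative run were those of PRDM1, PTGS2, ANTXR2, CLDN1, EGLN3, SPRY2, HMOX1, SERPINE2, ANXA2, BNIP3L, ANGPTL4, ENO2, SLC16A3, IFITM3, DDIT4 and CTSD. Of the 16 fits without 1 library, the call was lost in 10 for S100A4 (adjusted p 0.0530 to 0.147), 8 for CDH1 (0.0554 to 0.113), 7 for CHAC1 (0.0518 to 0.0935), 6 for BBC3 (0.0565 to 0.136), 5 each for FOSL2 (0.0533 to 0.0860) and LAMB3 (0.0579 to 0.0835) and 4 for ALDOC (0.0653 to 0.0797). CDH1 did not pass with the replicate block (0.0528), under total-count scaling (0.0562), in limma-voom (0.0670) or with the 16 libraries alone (0.267) either. KRT6A lost it without FaDu cetuximab replicate 1 or 4 (0.0731 and 0.0663). Kyse30 invasive replicate 2 decided the calls of MUC1 (0.0582 without it) and PAX9 (0.104), Kyse30 invasive replicate 3 that of IGFL1 (0.173), the shallow Kyse30 invasive replicate 1 those of KRT5 (0.197) and PARP9 (0.0777), Kyse30 cetuximab replicate 4 that of DUSP6 (0.0664) and FaDu invasive replicate 2 that of SREBF2 (0.0525). With only the 16 libraries compared, 19 of the 37 calls were lost, among them those of DUSP8 (0.0783), MUC1 (0.180), SCNN1A (0.199), ETV4 (0.109) and TIMP1 (0.197). In limma-voom 10 were lost, among them those of DUSP8 (0.0664) and ELF3 (0.0717).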

How the results depend on the processing

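For invasive against cetuximab cells, all 40 libraries in 1 fit gave 1075 differing genes (427 higher, 648 lower) and the 8 libraries alone 1313 (688 and 625), against 2606 in the 20-library fit. Leaving out 1 library gave 1826 to 3085 genes (880 to 1448 higher, 946 to 1637 lower). For invasive against non-invasive cells, DESeq2 gave 629 (185 and 444), all 40 libraries 84 (1 and 83), the 8 libraries 178 higher and total-count scaling 46 higher. Without single libraries or both that stood apart the range was 209 to 388 (28 to 91 higher, 181 to 297 lower). For the interaction, DESeq2 gave 1355 (677 and 678), the 16 libraries alone 118 (68 and 50) and total-count scaling 549 lower, with 468 to 1263 (249 to 669, 209 to 594) without single libraries. The cause of these shifts was not tested. Total-count scaling moved the higher share of differing genes from 22.0% to 10.6% against non-invasive cells and from 51.8% to 36.4% in the interaction.

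The change of EGFR was near 0 and turned sign: leaving out 1 library gave -0.0841 to 0.159, with 9.93e-05 without cetuximab replicate 3 and 0.0783 without invasive replicate 2, and leaving out both libraries that stood apart gave 0.00802. Deviations of same-numbered invasive and cetuximab libraries correlated at -0.114, 0.256, 0.0180 and -0.0185 for replicates 1 to 4. Those of invasive and non-invasive libraries correlated at 0.176, -0.0701, -0.00924 and -0.0136. The value of replicate 2 in the first set and of replicate 1 in the second was the highest among all pairings of the 2 groups. No label names pairs, and the numbers were not taken as pairs. A replicate block gave 2515 genes, of which 2430 were shared with the fit without it, 351 against non-invasive cells and 538 in the interaction. Depth limits the low genes: a gene at 0 counts in a whole group could stand at up to 0.205 CPM in invasive or 0.163 CPM in cetuximab cells. Of the 129 reported genes, 14 lost their call against cetuximab in the fit of all 40 libraries: ERBB2, ERBB3, TONSL, PTPN1, CAV1, CAPG, GINS1, NUSAP1, PARP9, ISG20, LCN2, GCLM, EFNB1 and SOX9. TIMP3 and CAPG lost it with only the 8 libraries compared and DUSP8 in limma-voom.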

Other observations

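Replicates of a group ranked alike over many of the named genes. Among the 12 genes with the largest rises, invasive replicate 1 was the lowest invasive library in 11 and non-invasive replicate 1 the lowest non-invasive library in 11. Cetuximab replicate 1 was the highest of its group in 7 of these genes and replicate 2 in 4. Among the 12 with the largest falls, invasive replicate 4 was the highest invasive library in 7 and cetuximab replicate 4 the lowest cetuximab library in 6. The genes were chosen for their difference between the groups, and these ranks were noticed after seeing the data.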
